A study of Mus musculus with 9 samples.

Results

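The 10 genes described here are maternal mRNA storage and effect genes, whose transcripts accumulate in growing oocytes and whose products act on the stored mRNA, on meiosis or in the early embryo. They are Zar1, Zar1l, Ybx2, Cpeb1, Pabpc1l, Btg4, Npm2, Dppa3, Mos and Bcl2l10, and they were taken by gene symbol from tables of 52025 genes. FPKM is the number of fragments scaled by exon length and by the mapped fragments of the library. All 10 passed the filter on low values (a day mean of over 1 FPKM) and were among the 15495 genes tested. RNA was from juvenile mice of the Kunming strain at PD14, PD15 and PD16 (PD, postnatal day), with 3 libraries for each day, and no treatment, transgene or mutant allele is named for any group. The study chose these days to follow the first formation of the follicular antrum, the fluid-filled cavity of the growing follicle.

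Granulosa cells are named as the source in the labels of all libraries, next to ovary as the tissue, whereas the methods of the study describe ovaries. None of 20 oocyte markers was at 0 in all 9 libraries. The zona pellucida gene Zp3, an oocyte product, had a mean FPKM of 349 at PD14, 401 at PD15 and 276 at PD16. The libraries thus held oocyte RNA, and they are described as ovaries below. FPKM is scaled to all mapped fragments of a library. In such bulk RNA, fewer or smaller oocytes, less RNA of a gene per oocyte and more RNA of other cells cannot be told apart.

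An oocyte stops transcription near the end of its growth, so meiosis and the earliest embryonic events run on mRNA that was made and stored before. RNA-binding proteins hold these transcripts in a stable, mostly silent form with short poly(A) tails, and cytoplasmic polyadenylation or deadenylation later decides which of them are translated or destroyed. In the juvenile mouse ovary, the first wave of follicles carries growing oocytes in which this stock is built.

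The depth of the libraries was 20.3 to 28.7 M mapped fragments, as derived from the steps of the low FPKM. At this depth, a single gene of the 10 was covered by 429 to 6561 fragments in a library. Counting error was 1.46% to 4.34% of the level, whereas the libraries of the same day varied by 6.76% to 13.5% (coefficient of variation). PD14 replicate 2 stood apart from the other 2 libraries of its day. The mean deviation of the 10 genes from their mean over the 9 libraries was -0.20 in it, on the log2(FPKM + 1) scale, and 0.074 and 0.070 in the others. The 20 oocyte markers deviated in it by -0.16, and by 0.056 and 0.11 in PD14 replicates 1 and 3. Where leaving it out moved a change between days given below for one of the 10 genes by over 1.5 times, or made a call of it, the value without it is given.

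The promoters of Zar1 and Zar1l are shown because these paralogues are both among the 10 genes and the courses of their levels are set side by side below. Both windows run from 250 bases before to 50 bases after the start site in RefSeq (GRCm38.p6), on the minus strand, and span chr5:72581035-72581334 for Zar1 and chr5:150518110-150518409 for Zar1l. Capitals mark matches on either strand to CANNTG, the E-box bound by basic helix-loop-helix factors such as FIGLA and SOHLH1, and to TAATTG, an element bound by the oocyte homeobox factor NOBOX, which reads CAATTA on the other strand.
Zar1: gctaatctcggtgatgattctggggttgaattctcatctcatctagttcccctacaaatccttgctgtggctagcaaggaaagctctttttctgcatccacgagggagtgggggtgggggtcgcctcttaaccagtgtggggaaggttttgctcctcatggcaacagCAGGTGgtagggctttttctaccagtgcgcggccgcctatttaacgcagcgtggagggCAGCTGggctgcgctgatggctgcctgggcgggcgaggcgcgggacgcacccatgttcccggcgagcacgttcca
Zar1l: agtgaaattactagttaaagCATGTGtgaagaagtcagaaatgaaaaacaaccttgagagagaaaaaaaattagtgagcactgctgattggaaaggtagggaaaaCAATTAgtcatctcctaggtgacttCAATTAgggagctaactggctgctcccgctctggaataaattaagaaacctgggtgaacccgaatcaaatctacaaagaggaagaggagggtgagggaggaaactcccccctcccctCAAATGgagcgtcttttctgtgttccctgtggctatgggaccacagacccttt
Windows were listed for 6 of the 10 genes (Zar1, Zar1l, Ybx2, Cpeb1, Pabpc1l and Btg4) and not for Npm2, Dppa3, Mos and Bcl2l10. There were 7 windows, since Ybx2 had 2. CANNTG was found in 6 of the 7 windows, all but 1 of those of Ybx2, and in 72.3% of all 32851 promoter windows of 300 bases. TAATTG was found, at 2 places, in the window of Zar1l alone of the 7, against 8.0% of all windows. The other NOBOX elements, TAGTTG (6.59% of all windows) and TAATTA (5.29%), matched no window of the 6 genes on either strand. TATAAA matched that of Cpeb1 alone, against 13.6% of all. A match describes letters, not a bound site.

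The ends of the transcripts were read for the cytoplasmic polyadenylation element, taken as TTTTAT or TTTTAAT on the transcript strand, which is the sequence that CPEB1 binds. In the last 100 bases of the main GENCODE M21 transcript, it was found in Ybx2, Btg4 and Bcl2l10, that is, in 3 of the 9 genes whose 3′ untranslated region had at least 100 bases. In all 19341 such genes, the share was 17.9%. The 30 bases around each element, with the element in capitals, lie in the 3′ untranslated region on the plus strand of GRCm38 (mm10), at chr11:69941532-69941561 for Ybx2, chr9:51119797-51119826 for Btg4 and chr9:75351579-75351608 for Bcl2l10.
Ybx2: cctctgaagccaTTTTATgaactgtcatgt
Btg4: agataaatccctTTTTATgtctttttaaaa
Bcl2l10: cccttaatacatTTTTAATaacttcaaatt
The elements started 62, 67 and 42 bases from the end of the annotated transcripts, respectively. Over the whole 3′ untranslated region, Btg4 held 5 such elements and Cpeb1 held 4, all of the latter outside the last 100 bases. The polyadenylation signal, AATAAA or ATTAAA, was present in the last 100 bases of 7 of the 9 genes, against 78.6% of all genes. The annotated 3′ untranslated region of Zar1l had only 14 bases and was not counted.

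Averaged over the 9 libraries, Npm2 had the highest FPKM of the 10 genes at 154, above that of 98.3% of the genes tested. Dppa3 followed at 118 FPKM, Bcl2l10 at 66.3, Zar1 at 55.5, Ybx2 at 48.7, Mos at 29.2, Zar1l at 24.3, Cpeb1 at 23.0, Pabpc1l at 15.8 and Btg4 at 13.7. Among neighbours in this order, the ranges over the 9 libraries were apart only for Dppa3 and Bcl2l10 and for Ybx2 and Mos. Npm2 was nevertheless above Dppa3, Bcl2l10 above Zar1 and Cpeb1 above Pabpc1l in 9 of 9 libraries. Zar1 exceeded Ybx2 in 8 libraries and Mos exceeded Zar1l in 8. Zar1l and Cpeb1 were hardly separated, with Zar1l higher in 6 of 9 libraries, and Pabpc1l was above Btg4 in 7. FPKM is scaled by length, and the exon length behind each value was not given in the tables. In GENCODE M21, the exons of Zar1 hold 3465 bases together and its main transcript 1429. For Btg4 these were 2556 and 1486, and for Zar1l 895 and 895. The order of genes and the size of a ratio between 2 genes thus depend on the length used, whereas the order of days within a gene does not.

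Zar1 (zygote arrest 1, chr5:72576806-72581254, minus strand) encodes an RNA-binding protein that keeps maternal transcripts stable in the oocyte. Its FPKM was 56.6, 46.3 and 58.7 at PD14, 64.8, 61.7 and 66.0 at PD15, and 46.6, 49.0 and 49.5 at PD16. All libraries of PD15 were above all those of the other days, and PD14 replicate 2 was as low as PD16. The change in log2(FPKM + 1) was 0.25 ± 0.09 (SE) from PD14 to PD15, -0.40 ± 0.09 from PD15 to PD16 and -0.15 ± 0.09 from PD14 to PD16. Without PD14 replicate 2, the change was 0.15 from PD14 to PD15 and -0.25 from PD14 to PD16. Without PD14 replicate 3, that from PD14 to PD16 was smaller in size. In limma, the adjusted p in the fit of all libraries was 0.216, 0.0738 and 0.348, respectively, and the exact permutation test over the 3 days gave p = 0.0179.

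Zar1l (chr5:150507055-150518164, minus strand), a paralogue of Zar1 with a similar RNA-binding zinc finger end, did not follow this course. Its FPKM was 23.3, 21.8 and 23.6 at PD14, 23.5, 24.5 and 28.3 at PD15, and 24.2, 25.7 and 23.7 at PD16. The libraries of PD16 lay within the range of PD15, and just above all those of PD14. The change from PD15 to PD16 was only -0.045 ± 0.074 (limma, adjusted p = 0.850), with a 95% confidence interval of -0.21 to 0.12, and its sign turned to 0.032 without PD15 replicate 3. Within a library, the FPKM of Zar1 was 2.35 ± 0.20 times that of Zar1l at PD14 (SD, n = 3), with a ratio of 2.54 ± 0.22 at PD15 and 1.97 ± 0.10 at PD16. The 3 libraries of PD16 gave ratios of 1.92, 1.90 and 2.09, below all 6 others, among which PD14 replicate 2 was lowest at 2.13. This pair was chosen after its values were seen, and no test is given for it.

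Ybx2 (MSY2, chr11:69935796-69941605, plus strand), the germ cell Y-box protein that packages stored mRNA, had the lowest levels at PD16. Its FPKM was 51.2, 48.1 and 54.1 at PD14, 59.2, 55.5 and 50.1 at PD15, and 35.5, 39.3 and 45.0 at PD16. The libraries of PD14 and PD15 overlapped, and all 3 of PD16 were below them. The change was -0.35 ± 0.10 (SE) from PD14 to PD16 and -0.45 ± 0.10 from PD15 to PD16, with adjusted p of 0.0694 and 0.0687 in limma, and it was 0.10 ± 0.10 from PD14 to PD15. With a library left out, the latter ranged from 0.045 without PD15 replicate 1, through 0.057 without PD14 replicate 2, to 0.16 without PD15 replicate 3. Over the 3 days the exact permutation p of Ybx2 was 0.0107, the lowest of the 10 genes, where 280 groupings allow no p below 0.00357.

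**Figure D1:**
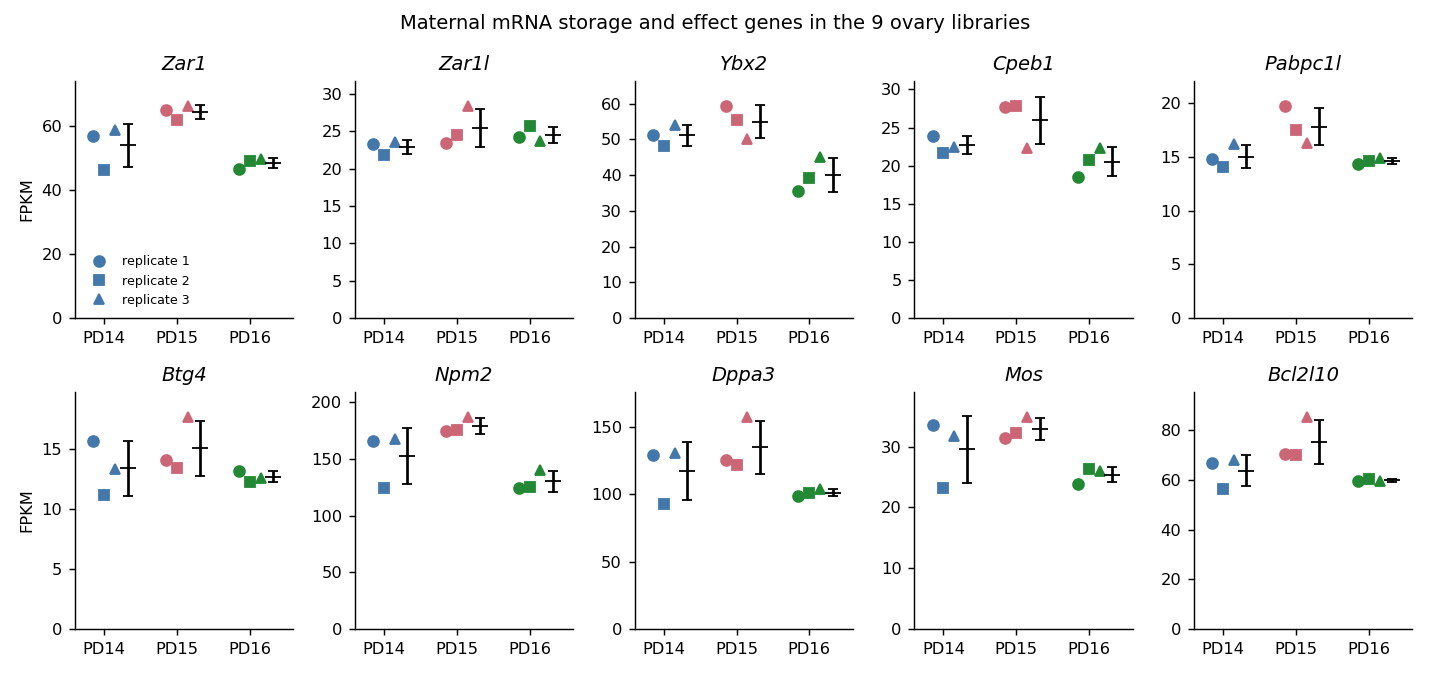
FPKM (vertical axes, from 0) of each of the 10 genes in the 9 libraries by day, with 1 marker shape for each replicate number and the mean ± SD of each day in black. PD15 had the highest mean for all 10 genes, PD14 replicate 2 (square) was the lowest library of its day, and in Ybx2 all 3 libraries of PD16 were below the others.

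Cpeb1 (chr7:81347026-81455465, minus strand) binds the cytoplasmic polyadenylation element and represses or activates translation of the mRNA that carries it. Its FPKM was 23.9, 21.6 and 22.4 at PD14, 27.6, 27.8 and 22.4 at PD15, and 18.6, 20.7 and 22.3 at PD16. PD15 replicate 3 was as low as PD14, so that PD15 and PD16 were barely apart, at 22.4 and 22.3. The change from PD15 to PD16 was -0.32 ± 0.10 (limma, adjusted p = 0.165).

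Pabpc1l (chr2:164025450-164050538, plus strand) encodes the embryonic poly(A)-binding protein, which takes the place of its somatic relative on oocyte mRNA. Its FPKM was 14.8, 14.1 and 16.2 at PD14, 19.7, 17.5 and 16.3 at PD15, and 14.3, 14.6 and 14.9 at PD16. PD15 was above both other days in every library, though by little in replicate 3. The changes were 0.23 ± 0.08 from PD14 to PD15 (limma, adjusted p = 0.209) and -0.26 ± 0.08 from PD15 to PD16 (adjusted p = 0.157).

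Btg4 (chr9:51060901-51119875, plus strand) links the CCR4-NOT deadenylase to mRNA and is needed for maternal transcripts to be cleared. Its FPKM was 15.7, 11.1 and 13.4 at PD14, 14.1, 13.4 and 17.7 at PD15, and 13.2, 12.3 and 12.6 at PD16. Its mean FPKM was the lowest of the 10 genes, and the libraries of PD14 spanned all but 1 of the values of the other days. The largest change, from PD15 to PD16, was -0.22 ± 0.12 (limma, adjusted p = 0.468), and it was -0.11 without PD15 replicate 3.

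Npm2 (nucleoplasmin, chr14:70647302-70659244, minus strand) is a histone chaperone that organises the nucleus of the oocyte and the chromatin of the zygote. Its FPKM was 166, 124 and 167 at PD14, 175, 175 and 187 at PD15, and 124, 126 and 141 at PD16. The libraries of PD15 lay above those of PD14 and PD16, and those of PD14 and PD16 overlapped because of PD14 replicate 2. Its change from PD15 to PD16, -0.46 ± 0.12, was the largest of the 10 genes on this scale and in this fit (limma, adjusted p = 0.113). That of Ybx2, at -0.45 ± 0.10, was hardly smaller. Of the annotated exon bases of Npm2, 3.76% are shared with Xpo7 on the same strand, whereas none of the other 9 genes shares exon bases with another gene.

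Dppa3 (Stella, chr6:122626410-122630272, plus strand) protects the maternal genome from loss of DNA methylation in the zygote. Its FPKM was 129, 92.8 and 131 at PD14, 126, 122 and 157 at PD15, and 98.6, 101 and 104 at PD16. PD16 was below PD15 in every library, and PD14 replicate 2 was the lowest of all 9. The change from PD15 to PD16 was -0.40 ± 0.14 (limma, adjusted p = 0.227), and its error was the largest of the 10 genes.

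Mos (chr4:3870657-3872105, minus strand), the kinase that activates the MAP kinase pathway and holds the mature oocyte at metaphase of the second meiotic division, is a gene of a single exon. Its FPKM was 33.6, 23.3 and 31.7 at PD14, 31.4, 32.2 and 34.8 at PD15, and 23.9, 26.3 and 25.9 at PD16. Apart from PD14 replicate 2, the lowest library, those of PD16 were below all others. The change from PD15 to PD16 was -0.36 ± 0.12 (limma, adjusted p = 0.207).

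Bcl2l10 (chr9:75347758-75351632, plus strand) belongs to the Bcl-2 family of apoptosis regulators and is abundant in oocytes. Its FPKM was 66.7, 56.4 and 68.1 at PD14, 70.2, 70.2 and 85.2 at PD15, and 59.5, 60.5 and 59.6 at PD16. The libraries of PD15 were above all others, with replicate 3 the highest, and those of PD16 were nearly equal. The changes were 0.23 ± 0.09 from PD14 to PD15 (limma, adjusted p = 0.292) and -0.32 ± 0.09 from PD15 to PD16 (adjusted p = 0.165). The former was 0.15 without PD14 replicate 2 and 0.14 without PD15 replicate 3.

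Between PD14 and PD15, the mean of all 10 genes was higher at PD15, but no gene passed the test. The median change of the 10 was 0.19, against 0.0065 for all genes tested, and the fitted change was above 0 for 10 of 10 genes, against 51.9% of all genes. In limma, 0 of 10 had an adjusted p under 0.05, where 0.678% of all genes did, and 3 (Zar1, Pabpc1l and Bcl2l10) were higher with an unadjusted p under 0.05, against 7.22% of all. The libraries of PD15 were above those of PD14 without overlap for 4 genes, namely these 3 and Npm2, where 10.4% of all genes were. The 10 genes were measured in the same libraries and are not independent of each other. Without PD14 replicate 2, the median change was 0.11.

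From PD15 to PD16, the mean of all 10 genes was lower, and again no gene passed the test. The median change was -0.34, against 0.0091 for all genes, and it was below 0 for 10 of 10 genes and for 46.8% of all. The adjusted p of limma was under 0.05 for 0 of 10, where 0.729% of all genes were called, and 8, all but Zar1l and Btg4, were lower with an unadjusted p under 0.05, against 7.34% of all. The libraries of PD16 were below those of PD15 without overlap for 9 genes, all but Zar1l, where 9.73% of all genes were. Zar1 was called in a fit of PD15 and PD16 alone (adjusted p = 0.0458), where 0.617% of all genes were. Without PD14 replicate 2, which leaves these changes as they were, 2 genes were called in limma, Zar1 with an adjusted p of 0.0295 and Npm2 with 0.0424, against 0.804% of all genes in that fit.

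From PD14 to PD16, none of the 10 genes passed the test. The median change was -0.14, and -0.21 without PD14 replicate 2, against 0.0093 for all genes. Of the 10 changes, 9 were below 0, all but that of Zar1l at 0.10 ± 0.07, against 47.8% of all genes. Without PD14 replicate 2 the change of Zar1l was 0.063, and without PD16 replicate 2 it was 0.064. The adjusted p of limma was under 0.05 for 0 of 10, against 4.25% of all genes, and Ybx2 alone was lower with an unadjusted p under 0.05, against 11% of all. Ybx2 was lower at PD16 without overlap, as were 13.5% of all genes, and Zar1l was higher without overlap, as were 15% of all genes. Mos was called without PD14 replicate 2 (limma, change -0.35, adjusted p = 0.0460), where 2.73% of all genes were, and Ybx2 without PD16 replicate 3 (change -0.44, adjusted p = 0.0461), where 2.65% were. PD15 and PD16 were both compared with the same PD14 libraries, and the 3 comparisons are not independent.

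Over the 3 days together, the F test of limma called 0 of 10 genes at an adjusted p under 0.05, against 3.03% of all genes, with Ybx2 lowest at 0.0571 and Zar1 at 0.0685. Its unadjusted p was under 0.05 for 7 of 10, against 22.3% of all. The exact permutation test gave a p under 0.05, not adjusted, for 5 of the 10 genes, against 18.5% of all. These were Ybx2 (0.0107), Zar1 (0.0179), Bcl2l10 (0.0321), Pabpc1l (0.0464) and Npm2 (0.0464). For Zar1l and Btg4 it gave 0.246 and 0.368. Without PD14 replicate 2 the F test called 3 genes (Zar1, Npm2 and Mos, adjusted p of 0.0337, 0.0444 and 0.0474) and 1.75% of all genes. Without PD16 replicate 3 it called Ybx2 (limma, adjusted p = 0.0481) and 1.52% of all genes.

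**Figure D2:**
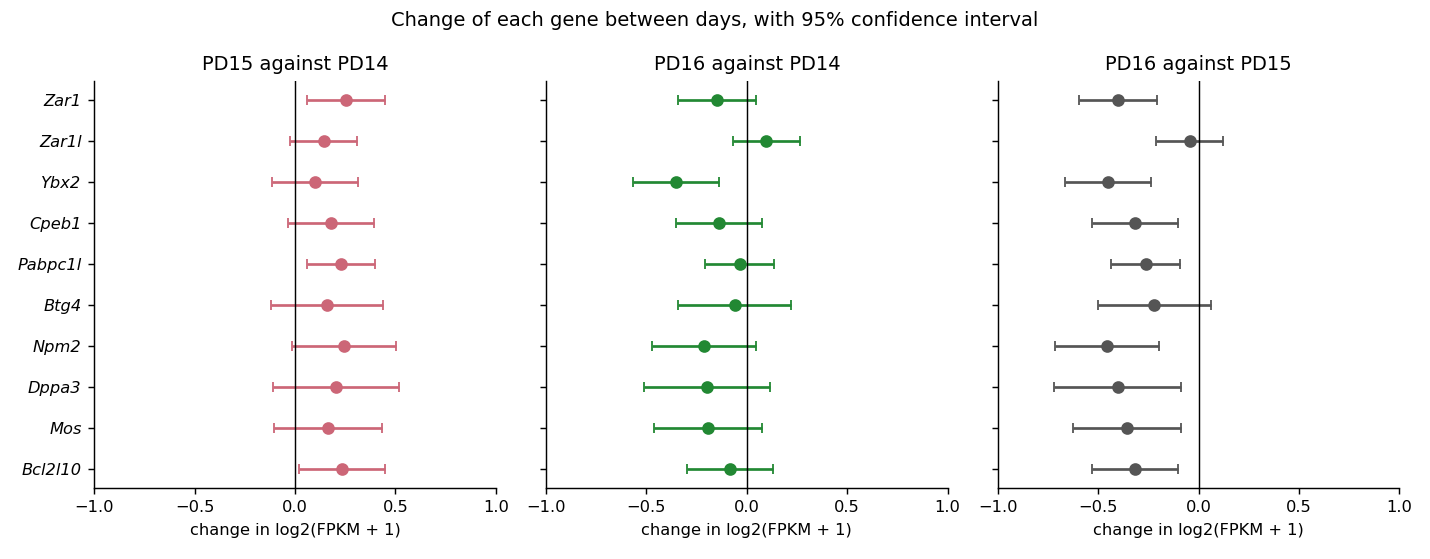
Change in log2(FPKM + 1) of each gene (points) with its 95% confidence interval from limma (bars) for the 3 pairs of days. From PD15 to PD16 the intervals of 8 genes lie below 0, and those of Zar1l and Btg4 hold 0.

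The summed levels of the oocyte markers followed the same order of days as those of the 10 genes. The summed FPKM of the 20 markers was 1904 to 2369 at PD14, 2417 to 2571 at PD15 and 1800 to 1920 at PD16. The sum of the 10 genes was 459 to 586, 600 to 665 and 459 to 498. Both lists were thus highest in the 3 libraries of PD15, and PD14 replicate 2 was the lowest library of its day in both. The median change of the markers was 0.11 from PD14 to PD15, -0.30 from PD15 to PD16 and -0.23 from PD14 to PD16. Without PD14 replicate 2 it was 0.026 from PD14 to PD15, where 12 of the 20 changes were above 0, and -0.31 from PD14 to PD16. Without PD14 replicate 3 the median from PD14 to PD15 was 0.20, with 18 of the 20 changes above 0. With all libraries, single markers differed in direction, with a change above 0 for 16 of 20 and below 0 for 4 (down to -0.27) from PD14 to PD15, below 0 for 20 of 20 from PD15 to PD16, and below 0 for 15 and above 0 for 5 from PD14 to PD16.

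Of the 20 oocyte markers, limma called 1 from PD14 to PD15, 2 from PD15 to PD16 and 1 from PD14 to PD16. Of all genes, it called 0.678%, 0.729% and 4.25%, respectively. Nlrp5, a subunit of the subcortical maternal complex, rose by 0.76 from PD14 to PD15 (adjusted p = 0.038) and fell by 0.72 from PD15 to PD16 (adjusted p = 0.044). Zp2, a zona pellucida gene, fell by 0.61 from PD15 to PD16 (adjusted p = 0.043). Bmp15, an oocyte growth factor, went the other way over the whole interval and rose by 0.39 from PD14 to PD16 (adjusted p = 0.033). These counts changed when a single library was left out, which also leaves fewer libraries for the test. Of all genes, 3 to 92 were then called from PD14 to PD15. The call at PD15 was lost without PD14 replicate 2 or 3, any library of PD15, or PD16 replicate 2. It was also lost with no expression filter, with the replicate number as a block and in a fit of PD14 and PD15 alone. From PD15 to PD16, 4 markers were called without PD14 replicate 2 and 0 or 1 without any other single library. From PD14 to PD16, 3 were called without PD14 replicate 2 and 0 without PD14 replicate 1 or 3, PD15 replicate 2, or PD16 replicate 1 or 2.

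Set against these markers within each library, the 10 genes hardly moved. Their mean log2(FPKM + 1) was below that of the markers by 0.54 to 0.62 in all 9 libraries, whatever the day. After the mean of the markers was subtracted, the median change from PD14 to PD16 was 0.025 in place of -0.14, and 9 of the 10 genes changed by -0.19 to 0.13 over the 3 pairs of days, none with an adjusted p under 0.05. Ybx2 was lowest, with -0.19 from PD14 to PD16 (95% confidence interval -0.42 to 0.05). Zar1l was the exception, with 0.28 from PD15 to PD16 (0.08 to 0.48, limma, adjusted p = 0.0229) and 0.26 from PD14 to PD16 (0.06 to 0.46, adjusted p = 0.0907). Against their own mean, the markers Bmp15, Zp2 and Nlrp5 changed by 0.33, -0.28 and -0.39 from PD15 to PD16 (limma, adjusted p = 0.0192, 0.0252 and 0.0158). This reference shifts every gene, and 60.1% of all genes were called from PD15 to PD16 when it was used. A call of Zar1l there thus says only that it did not follow the mean of the oocyte markers.

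**Figure D3:**
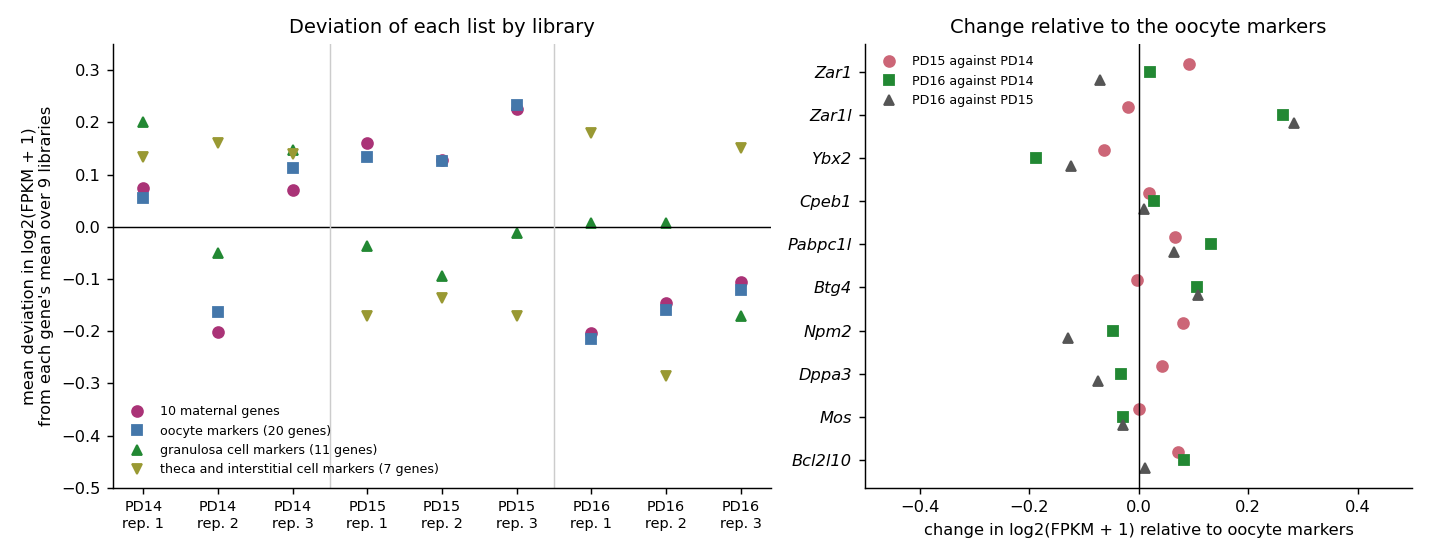
Left, mean deviation in log2(FPKM + 1) of each gene list from the mean of the 9 libraries, with 1 point for each list and library. Right, change of each gene relative to the mean of the oocyte markers for the 3 pairs of days. The 10 genes and the oocyte markers overlie each other in nearly every library, and Zar1l stands to the right at PD16.

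The same likeness was seen gene by gene. Across the 9 libraries, which share the days, the Pearson correlation with the mean of the oocyte markers was 0.98 for Zar1 and for Npm2, 0.95 for Dppa3 and for Mos, 0.93 for Bcl2l10, 0.81 for Ybx2, 0.75 for Btg4, 0.74 for Pabpc1l and 0.69 for Cpeb1. It was 0.40 for Zar1l. With the mean of 11 granulosa cell markers it was -0.13 to 0.40. The summed FPKM of the granulosa cell markers was 3039 to 3732 at PD14, 2872 to 3286 at PD15 and 3002 to 3553 at PD16, with overlap between all days. Single granulosa cell markers went both ways, and limma called 1 higher and 2 lower from PD14 to PD16. Amh rose by 0.47 (adjusted p = 0.0223), whereas Cyp19a1 fell by 0.84 (adjusted p = 0.0316) and Kitl by 0.50 (adjusted p = 0.0494). Theca and interstitial cell markers (7 genes) summed to 1609 to 2231, 1182 to 1756 and 1211 to 1622, and blood markers (5 genes) to 105 to 147, 46.4 to 63.2 and 60.8 to 116. Endothelial markers (4 genes) summed to 52.5 to 55.5, 49.2 to 51.6 and 46.7 to 49.3. Fat markers (4 genes) summed to 6.75 to 7.94, 4.27 to 4.57 and 4.14 to 5.76. The part of these cells in the results for the 10 genes was not tested.

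The 5 genes most like the mean course of the 10, by Pearson correlation over the 9 libraries among all other genes tested, were Khdc1a (0.98), a locus without a symbol (0.98), Oas1e (0.98), Pecr (0.97) and Nanos1 (0.97). Mean FPKM of Khdc1a was 30.1 at PD14, 35.9 at PD15 and 25.3 at PD16, and that of Oas1e was 86.2, 99.6 and 77.5. Nanos1, an RNA-binding repressor of translation, had 4.25, 5.30 and 3.93. None of these 5 was on the list of oocyte markers, but markers such as Zp2 (0.96) and Zp3 (0.94) came further down in this order.

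Paralogues offer another reference, since a ratio within a library needs no scaling between libraries. Their RNA may come from oocytes or from other cells, which was not tested. Where it comes from other cells, a ratio also moves with the share of oocyte RNA in the library. Of 17 paralogues, 12 had a change above 0 from PD14 to PD16, where 8086 of all 15495 genes tested did. The median of the 17 was 0.10, against 0.0093 for all genes and -0.14 for the 10 genes. Limma called the same 2 of the 17 at PD15 (0.678% of all genes) and at PD16 (4.25%) against PD14. It called 0 of them from PD15 to PD16 (0.729%). The 2 called were both lower and both antiproliferative relatives of Btg4 that also bind the CCR4-NOT complex. Tob1 fell by 0.41 at PD15 (adjusted p = 0.0345) and by 0.34 at PD16 (adjusted p = 0.0266) against PD14. Btg2 fell by 0.40 (adjusted p = 0.0498) and by 0.33 (adjusted p = 0.0375). With single libraries left out, the adjusted p ranged up to 0.115 and 0.0915 for Tob1 and up to 0.154 and 0.116 for Btg2. Over the 18 alternatives to the fit, the calls of Tob1 were lost in 10 and 8 and those of Btg2 in 16 and 12. These 4 calls thus depend on the libraries kept and on the processing.

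Exact permutation tests over the 3 days were made for the 17 ratios, and 9 had a p under 0.05, not adjusted over the pairs. Ratios of the same gene to several paralogues are not independent. No share over other pairs of genes is given here, so the count of 9 has no background to be read against. Among single genes, the same test gave such a p for 18.5% of all. The ratio of Ybx2 to Ybx3, a Y-box protein of somatic cells and male germ cells, was 0.843, 0.801 and 0.859 at PD14, 0.883, 0.887 and 0.830 at PD15, and 0.555, 0.565 and 0.680 at PD16. It was lower in the 3 libraries of PD16 than in all others (exact p = 0.0107). The ratio of Ybx2 to the ubiquitous Ybx1 was 0.256 ± 0.004 (SD, n = 3), 0.284 ± 0.027 and 0.187 ± 0.036 (exact p = 0.0107, and up to 0.05 with a library left out).

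Pabpc1l was far below Pabpc1 and Pabpc4 in FPKM. Its ratio to Pabpc1, the main cytoplasmic poly(A)-binding protein, by day was 0.112 ± 0.009, 0.130 ± 0.008 and 0.0984 ± 0.0059 (SD, n = 3, exact p = 0.0107). Its ratio to Pabpc4 was 0.292 ± 0.029, 0.331 ± 0.003 and 0.252 ± 0.005, and the 3 days did not overlap (exact p = 0.00357, the smallest possible). In contrast, Cpeb1 had the highest FPKM of its family, with ratios of 7.66, 7.58 and 6.85 to Cpeb2, 9.53, 10.6 and 10.6 to Cpeb3, and 4.74, 4.71 and 3.48 to Cpeb4 at PD14, PD15 and PD16. Only that to Cpeb4 had an exact p under 0.05 (0.0464, and up to 0.121 with a library left out).

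The ratio of Btg4 to Tob1 was 0.735, 0.558 and 0.649 at PD14, 1.01, 0.862 and 1.08 at PD15, and 0.793, 0.776 and 0.792 at PD16. All libraries of PD15 were above all those of PD16, which were above all those of PD14 (exact p = 0.00357). The ratio of Btg4 to Btg2 was 1.88 ± 0.23 (SD, n = 3), 2.95 ± 0.59 and 2.35 ± 0.24 (exact p = 0.0143). Both of these ratios contain the fall of Tob1 and Btg2, whereas those to Btg1, Btg3 and Tob2 had an exact p of 0.0714, 0.161 and 0.539.

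The FPKM of Npm2 was 3.31 ± 0.47 (SD, n = 3), 3.81 ± 0.19 and 2.70 ± 0.42 times that of Npm3 (exact p = 0.0429, and up to 0.10 with a library left out). Against Npm1, the abundant nucleolar relative, the ratio was 0.698 ± 0.103, 0.741 ± 0.079 and 0.495 ± 0.090 (exact p = 0.0571). Bcl2l10 exceeded each of the 3 relatives compared in FPKM. Its ratio was 20.5, 22.7 and 19.3 to Bcl2 and 5.18, 5.12 and 4.26 to Bcl2l1 (Bcl-xL) on the 3 days, with an exact p of 0.343 and 0.136. Its ratio to Mcl1 was 1.25 ± 0.09, 1.52 ± 0.14 and 1.10 ± 0.04, and the 3 days did not overlap (exact p = 0.00357). Genes such as Npm1, Ybx1 and Pabpc1 have many processed pseudogenes with near-identical sequence, and how shared fragments were assigned is not given in the sources used here.

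**Figure D4:**
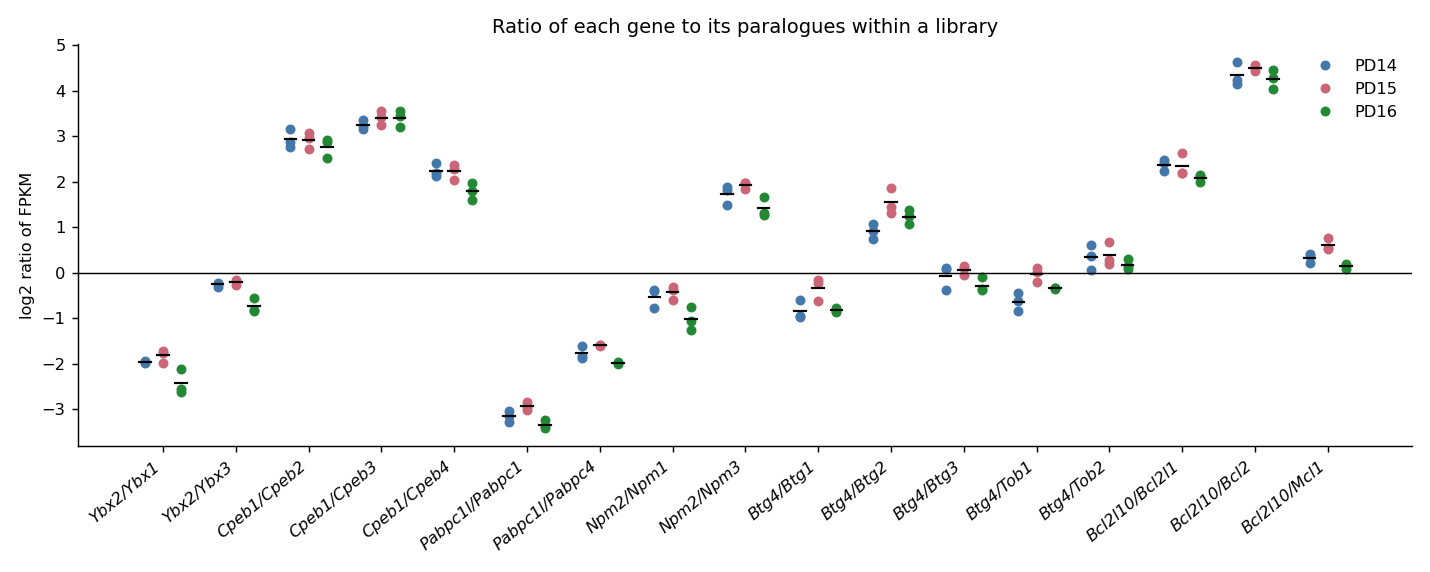
Log2 ratio of FPKM of each gene to its paralogues (vertical axis) in the 3 libraries of each day (points) with the mean of the day (bars). Ybx2 was lower against both paralogues at PD16, and Btg4 was higher against Tob1 at PD15 than on the other days.

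The wider set of regulators of stored mRNA held 30 genes, among them the cap-binding protein Eif4e1b, the deadenylase subunits Cnot7 and Cnot6l, the poly(A) polymerase Tent2 and the RNA-binding proteins Dazl and Zfp36l2. All 30 were tested, and the summed FPKM was 681 to 708 at PD14, 691 to 730 at PD15 and 672 to 706 at PD16, with overlap between the days. The median change was 0.063 from PD14 to PD15, -0.0088 from PD15 to PD16 and 0.063 from PD14 to PD16. With a library left out, the first ranged from 0.017 (without PD14 replicate 3) to 0.086, the second from -0.029 to 0.010 and the third from 0.039 to 0.086. Limma called 0 of 30 in the first 2 of these, and 1 was higher at an unadjusted p under 0.05 in the first (7.22% of all genes). In the second, 2 were higher and 5 were lower at that p, against 6.78% and 7.34% of all genes. From PD14 to PD16, 5 were higher and 4 were lower at that p, against 11.8% and 11% of all. There limma called 1 of 30, against 4.25% of all genes, namely Cirbp, the cold-inducible RNA-binding protein, which fell by 0.58 (adjusted p = 0.041), from a mean of 53.4 FPKM to 35.6. Among the fits with a library left out, the call was kept only without PD15 replicate 2 or 3 or PD16 replicate 3. It was also lost with no expression filter, quantile normalization, no intensity trend, the replicate number as a block, or PD14 and PD16 alone. Many of these regulators are expressed in somatic cells too, and the part of those cells was not tested.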

How the data were processed

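The study used the NEBNext Ultra kit on RNA of ovaries, with sequencing by Novogene, and names the replicates as independent ovaries. The submitters' processing notes name HISAT2 2.0.5 and mm10, and the counting tool and annotation are not given in the sources used here. The authors deposited FPKM, in 1 table for each of 9 libraries, and no counts. FPKM was used as deposited, every column of values was matched to a sample (0 were not), and a gene entered the tests (15495 did) if any of the day means exceeded 1 FPKM.

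Tests used limma 3.58.1 (R 4.3.3) on log2(FPKM + 1), with an intensity trend, all 9 libraries in 1 fit and Benjamini-Hochberg adjustment over all genes tested, with a gene called at an adjusted p under 0.05. A change on this scale understates that of low genes. Single genes and ratios were compared by an exact two-sided permutation test of the one-way F statistic over 280 groupings. Depth came from the step of 1 fragment in the low FPKM and GENCODE M21 exon lengths, since 94.9% to 95.3% of values below 20 fragments were whole within 0.05. Promoter windows were from RefSeq and transcript ends from GENCODE M21. Python 3.11.15, NumPy 2.4.6, pandas 2.3.3 and Matplotlib 3.10.9 were used.

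Levels or tests of single genes were given for the 10 genes, their 17 paralogues, the 5 most alike genes and Zp3 as a sign of oocyte RNA. They were also given for called genes of the lists of 20 oocyte markers, 30 regulators and 11 granulosa cell markers. Other regulators were named only as examples of their list. Members and lists were chosen with earlier results of these data known. The alternatives were no expression filter, a pseudocount of 0.1, median-ratio scaling, quantile normalization, no intensity trend, robust moderation, only the 2 days compared, the replicate number as a block, the oocyte markers as reference and each library left out. Those for the F test, the ratios and the list medians were added after the values were seen. Protein sequences were not used here.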

Additional observations from a re-analysis of the deposited data

How the results depend on the processing

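No gene of the 10 was called in any pair of days with no expression filter, a pseudocount of 0.1, median-ratio scaling, quantile normalization, no intensity trend, robust moderation or the replicate block. In a fit of PD15 and PD16 alone 1 gene was called (Zar1). With each library left out, 0 to 1 genes were called from PD14 to PD16, 0 to 2 from PD15 to PD16 and 0 to 3 by the F test over the 3 days. Of 540 single changes of the 10 genes under these alternatives, 519 kept their sign and their side of the threshold, 5 crossed the threshold with their sign kept and 16 turned in sign, 1 of which (Zar1l from PD15 to PD16, with the oocyte markers as reference) also crossed the threshold.

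The turns came mainly with the oocyte markers as reference. From PD14 to PD15 they were -0.020 for Zar1l, -0.0031 for Btg4 and -0.063 for Ybx2. From PD14 to PD16 they were 0.021 for Zar1, 0.11 for Btg4, 0.028 for Cpeb1, 0.13 for Pabpc1l and 0.083 for Bcl2l10, with a median of 0.025 for the 10 genes. From PD15 to PD16 they were 0.28 for Zar1l, 0.11 for Btg4, 0.0098 for Cpeb1, 0.065 for Pabpc1l and 0.011 for Bcl2l10. This reference subtracts the change of the markers from every gene. With a library left out, the change from PD14 to PD16 was -0.18 to 0.052 for Btg4 and -0.078 to 0.018 for Pabpc1l, and that of Zar1l from PD15 to PD16 was -0.10 to 0.032.

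The oocyte markers called from PD14 to PD15, from PD14 to PD16 and from PD15 to PD16 were 2, 4 and 4 with quantile normalization, 0 each with no expression filter, and 0 to 1, 0 to 3 and 0 to 4 with a library left out. From PD14 to PD15, 0 were called with those 2 days alone. Cirbp was not called (0 regulators from PD14 to PD16) with no expression filter, quantile normalization, no intensity trend, the replicate block or those 2 days alone, and 0 to 1 were called with a library left out. The cause was not tested.

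Of 810 changes of the 15 paralogues that were not called, 35 turned in sign, 17 of them with the oocyte markers as reference. With 2 exceptions under that reference, none of the 35 had an adjusted p under 0.05. Of 72 alternatives for the 4 calls of Tob1 and Btg2, 46 lost the call, 28 with a library left out and 18 in other settings, among them no expression filter and the replicate block for each of the 4. Another 13 paralogue changes were called only with the oocyte markers as reference. Same-numbered libraries of different days had a correlation of -0.21 to 0.16 in their deviations, and libraries with other numbers had -0.20 to 0.21. With 3 libraries a day, these values cannot decide whether the replicate numbers pair the samples. With the replicate block, 0 of 10 genes were called in every pair of days, 0 oocyte markers from PD14 to PD15, 1 from PD15 to PD16, and of all genes 24 from PD14 to PD15, 227 from PD14 to PD16 and 56 from PD15 to PD16. Counting error of each of the 10 genes was below the spread of libraries of a day, and with 3 libraries a day the intervals of the changes were wide.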
